A study of Mus musculus with 40 samples.

Results

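Early T-cell precursors (ETP) were compared with double-negative 3 (DN3) thymocytes from mice in which Zmiz1 had been deleted, 3 libraries of each stage. These 6 libraries are the DeltaMxCre libraries of a table with 24 libraries and 23284 genes, taken by their labels from a series of 40 libraries in 12 groups. The mice were C57BL/6, carried MxCre and the floxed alleles Zmiz1f/f, and received 40 mcg of pI-pC, a double-stranded RNA analogue, by intraperitoneal injection every 2 days for 5 injections. Both stages were sorted 8 weeks after injection from 3 mice per group, so both carried the same Cre, the same floxed alleles and the same agent. Control MxCre mice, which have the Cre without the floxed alleles, were treated and sorted in the same way and gave 3 ETP and 3 DN3 libraries. A further 3 ETP and 3 DN3 libraries came from mice injected with an isotype control IgG and sorted 24 hours later, for which no Cre is named. The Mx promoter responds to interferon and is not restricted to T cells, so its use does not restrict deletion to thymocytes. The labels do not tell which ETP and DN3 libraries came from the same mouse.

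RNA was extracted from 5000 to 20000 ETP and from 100000 to 400000 DN3 cells. All these libraries were then made from 10 ng of RNA with ribosomal RNA removal, a low-input kit and 16 PCR cycles. Stage and the number of cells extracted therefore cannot be told apart. Total counts were 15530100 to 17064846 in DeltaMxCre ETP and 12829780 to 18348755 in DeltaMxCre DN3. The share of counts on Rn45s, the ribosomal RNA precursor, was 13.9% ± 1.2 (SD, n = 3) in ETP and 4.88% ± 0.18 in DN3. The share on Malat1, a nuclear non-coding RNA, was 0.415% ± 0.038 in ETP and 1.18% ± 0.194 in DN3. Genes with at least 1 count numbered 12423 to 12963 in ETP and 13786 to 14091 in DN3. These quality measures moved with the stage, and their part in the results below was not tested. Levels are given as CPM, counts scaled to a common library size with factors set over the 12 pI-pC libraries, and are not corrected for gene length.

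ETP are the earliest thymic progenitors and keep Kit and other genes of bone marrow progenitors. Signalling through Notch1 drives them to the DN3 stage, where Rag1 and Rag2 rearrange the T-cell receptor beta gene and its product pairs with the pre-T-cell receptor alpha chain, Ptcra. Zmiz1 is a transcriptional co-activator that binds Notch1. The comparison addresses which differences between the stages are present in cells of Zmiz1-deleted mice.

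Zmiz1 (chromosome 14, 25459185 to 25666743, plus strand, GRCm38) had 57.3, 94.5 and 112 CPM in the DeltaMxCre ETP libraries and 112, 123 and 108 CPM in DeltaMxCre DN3. The MxCre libraries held 314, 234 and 151 CPM in ETP and 274, 334 and 301 CPM in DN3. Zmiz1 transcripts thus remained countable after deletion at both stages, and at each stage every DeltaMxCre library was below every MxCre library. Between the DeltaMxCre stages Zmiz1 did not pass the test, with a log2 fold change (DN3 minus ETP) of 0.38 (SE 0.21, edgeR adjusted p = 0.293).

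The libraries were checked against stage markers before the stages were compared. The labels give the same sorted phenotype, CD44-positive and CD25-negative, to both stages, with cKit in addition for ETP. Cd44 was at 50.9, 72.3 and 51.9 CPM in ETP and at 0.646, 0.704 and 0.515 CPM in DN3. Il2ra, which encodes CD25, was at 4465, 4518 and 4907 CPM in ETP and at 4102, 4585 and 5505 CPM in DN3. The Cd44 transcript therefore went against the labelled phenotype of the DN3 sort, and the Il2ra transcript against that of both. The part of cells of later stages in the ETP sort was not tested. Il2ra did not separate the DeltaMxCre stages (log2 fold change 0.03, SE 0.12, edgeR adjusted p = 0.919). In MxCre, its ETP libraries held 1619, 1901 and 2239 CPM and its DN3 libraries 2180, 3234 and 3949 CPM.

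The other ETP and DN3 markers are given with their groups below. Flt3, the receptor of early progenitors, had 73 counts over the 3 ETP libraries and 1 over the 3 DN3 libraries, too few for the test. It was at 18.2, 15.1 and 10.9 CPM in MxCre ETP. Of the markers of other cells, Pax5, S100a8, Mcpt8, Hba-a1, Krt5 and Foxn1 had no count in either stage. Klf1 of erythroid cells had 59 counts in ETP and 4 in DN3. Of B-cell markers, Cd79a had 2 and 10 and Ebf1 had 8 and 0. Others were detected in both stages, such as Lyz2 of myeloid cells at 17.3 to 24.4 CPM in ETP and 8.91 to 15.4 CPM in DN3, and Pecam1 of endothelial and blood cells at 147 to 188 CPM and 131 to 213 CPM. Siglech of dendritic cells had 89 counts in ETP and 146 in DN3 and Xcr1 had 64 and 72, while Zbtb46 had 146 and 80. Col1a1 of stromal cells had 0 and 70, while Col1a2 had 56 and 0. The part of such cells in the stage differences was not tested. Ncr1, of natural killer cells, had 1 count in ETP and 0 in DN3. In bulk libraries, fewer cells of a type and less RNA per cell cannot be told apart.

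**Figure D1:**
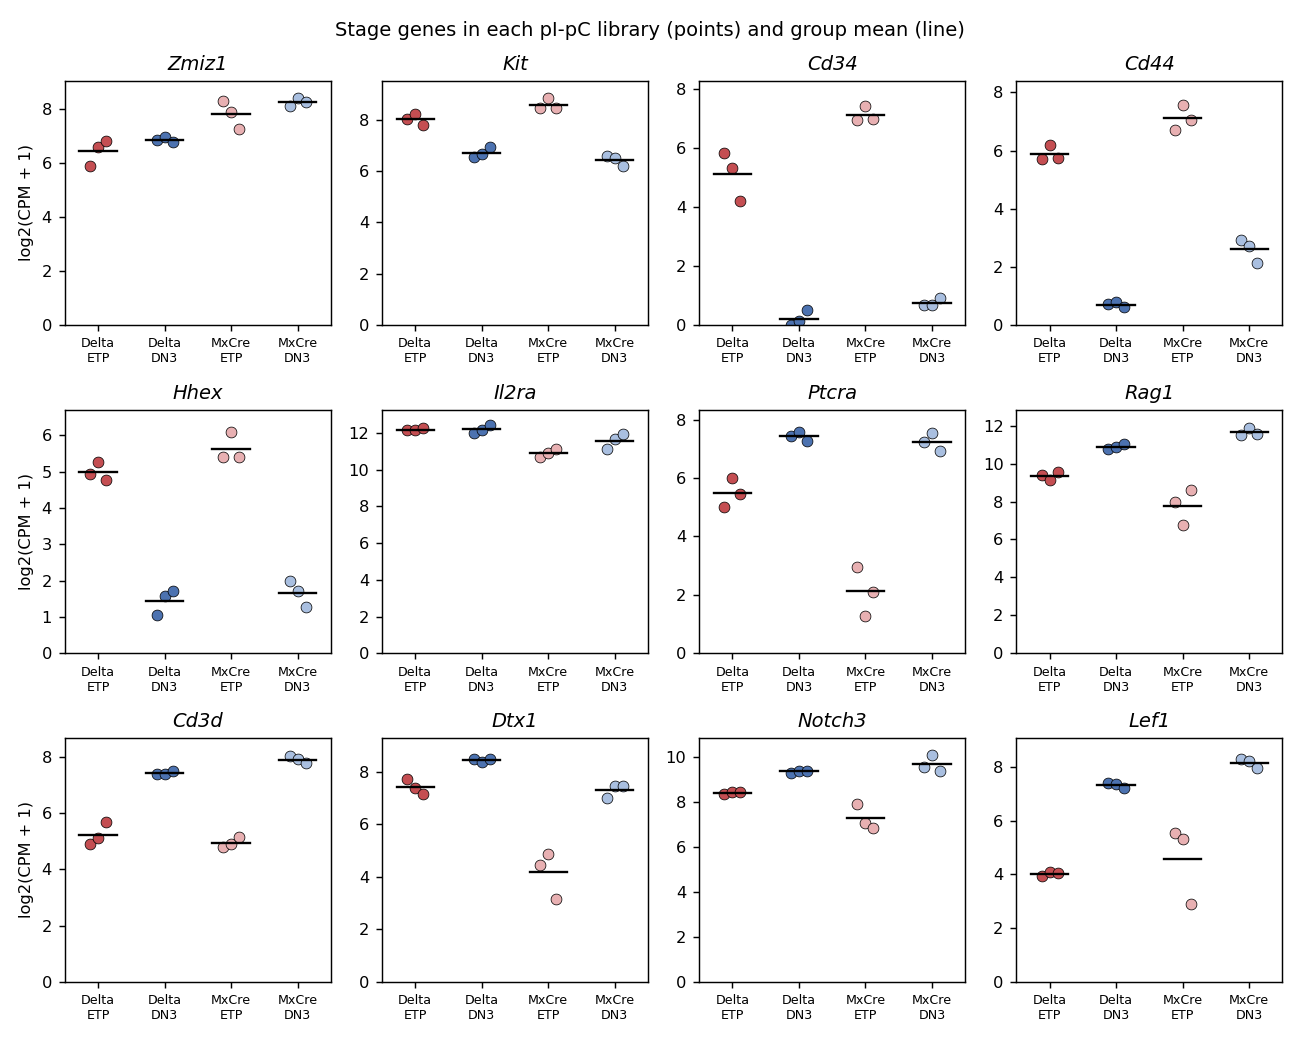
Levels of 12 stage genes as log2(CPM + 1) on the vertical axis in each DeltaMxCre (Delta) and MxCre library of both stages, with points for libraries and lines for the mean of 3. Cd34, Cd44 and Hhex are near the bottom of the axis in DeltaMxCre DN3 and high in ETP, while the Il2ra points of both DeltaMxCre stages overlap.

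The stages differed widely after Zmiz1 deletion, with most tested progenitor genes higher in ETP and some genes of recombination and the pre-T-cell receptor higher in DN3. Of 12494 genes with enough counts to test, 642 were higher in DN3 (5.14%) and 776 were higher in ETP (6.21%) at an adjusted p under 0.05 in edgeR's quasi-likelihood test. Among these, 265 were more than 2-fold higher in DN3 and 316 more than 2-fold higher in ETP, and 92 and 121 passed 4-fold. The levels did not overlap between the stages for 2098 genes higher in DN3 (16.8%) and 1944 higher in ETP (15.6%), whether or not they passed the test. DESeq2 called 964 (7.72%) and 1060 (8.48%) genes on the same counts. The numbers depended on single libraries. Without DN3 replicate 1, 2 or 3 edgeR called 415, 221 or 263 genes higher in DN3, and 531, 266 or 327 higher in ETP.

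**Figure D2:**
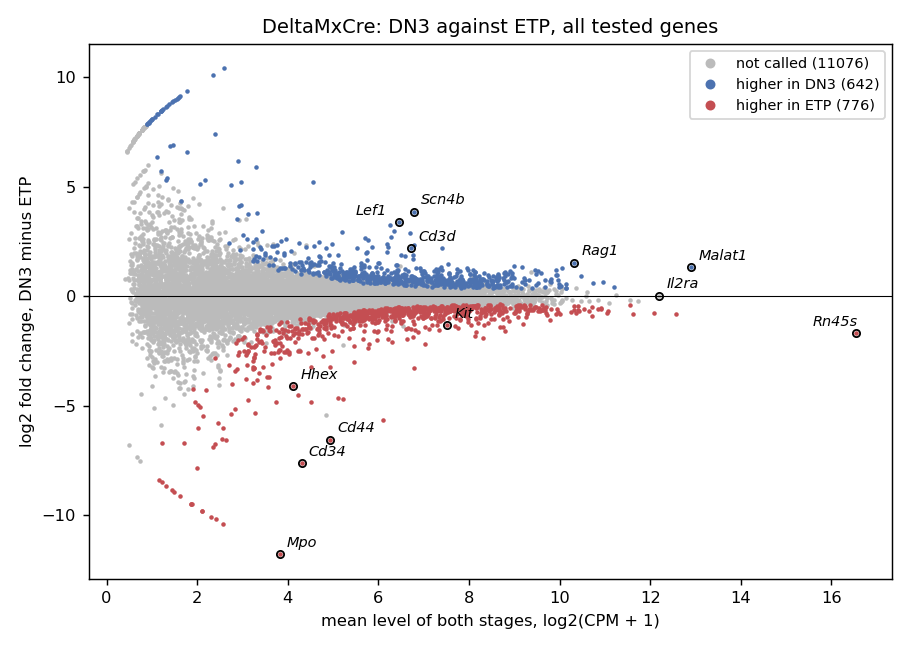
Fitted log2 fold change (DN3 minus ETP, vertical axis) of all 12494 tested genes in DeltaMxCre against the mean level of both stages as log2(CPM + 1). Blue points are the 642 genes called higher in DN3 and red points the 776 called higher in ETP, with Scn4b, Lef1 and Cd3d among the former and Mpo, Cd34 and Cd44 among the latter. The diagonal streaks at the left are genes with no count in one stage, whose fitted value depends on the prior count.

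Most tested stem and progenitor genes were higher in ETP. Of 24 on the list, 17 passed the filter on low counts, 12 of these were higher in ETP and none was higher in DN3, also by DESeq2. Their median log2 fold change was -2.47, against -0.01 over all genes tested. A low gene could enter the test only through the stage where it was higher, so these figures describe the list and were not tested as a set. The 12 calls were Kit, Cd34, Cd44, Hhex, Lyl1, Sfpi1, Bcl11a, Mef2c, Tal1, Hlf, Cd93 and Nfe2.

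Kit (chromosome 5, 75574916 to 75656722, plus strand), the receptor of stem cell factor, was at 260, 296 and 224 CPM in ETP and at 91.5, 99.6 and 121 CPM in DN3. No DN3 library reached an ETP library, and Kit fell 2.5-fold (log2 fold change -1.32, SE 0.15, edgeR adjusted p = 0.000299). Cd34 (chromosome 1, 194938819 to 194961279, plus strand), a sialomucin of progenitors, was at 55.6, 39 and 17.6 CPM in ETP and at 0, 0.101 and 0.412 CPM in DN3. It fell 219-fold on the means (log2 fold change -7.61, SE 0.74, edgeR adjusted p = 0.000102), with the ETP libraries themselves apart by more than the DN3 libraries.

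Cd44 (chromosome 2, 102811141 to 102901665, minus strand), the hyaluronan receptor, fell 93.9-fold from the levels given above (log2 fold change -6.54, SE 0.33, edgeR adjusted p = 9.25e-07). Hhex (chromosome 19, 37434810 to 37440731, plus strand), a homeobox factor of early progenitors, was at 29.4, 37.6 and 26.2 CPM in ETP and at 1.08, 2.01 and 2.27 CPM in DN3. It fell 17.4-fold (log2 fold change -4.10, SE 0.40, edgeR adjusted p = 0.000102). Both stages were tight for these genes, and the gap between them was many times the spread within a stage.

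Transcription factors of uncommitted progenitors were among these calls. Sfpi1, which encodes PU.1, was at 11.6, 6.81 and 8.06 CPM in ETP and at 0.143, 0.0503 and 0.258 CPM in DN3 (edgeR adjusted p = 0.00269). Lyl1 was at 17.1, 10.4 and 8.75 CPM in ETP and at 0, 0.704 and 0.258 CPM in DN3 (edgeR adjusted p = 0.0061). Bcl11a, needed for lymphoid progenitors, was at 40.3, 23.5 and 28.5 CPM in ETP and at 6.53, 4.03 and 6.08 CPM in DN3. It fell 5.55-fold (edgeR adjusted p = 0.00137). Lmo2 had 1.36, 2.15 and 1.19 CPM in ETP and 0, 0.302 and 0.515 CPM in DN3 and did not pass the test (edgeR adjusted p = 0.372). Hoxa9 had no count in any DeltaMxCre library, while MxCre ETP held 3.35, 5.32 and 2.51 CPM.

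Among markers of myeloid and mast cells, few had enough counts to test. Here too, a low gene could enter the test only through the stage where it was higher. Mpo, the myeloperoxidase of granulocyte precursors, was at 17.4, 14.3 and 46.9 CPM in ETP and had no count in DN3, so it was at least 465-fold lower, with the floor set at 3 counts over the DN3 group. It was the only called member among 9 tested of 19 myeloid markers, whose summed level was 61.8 to 106 CPM in ETP and 17.8 to 27.6 CPM in DN3. Cpa3, the carboxypeptidase of mast cells, which is also transcribed in early progenitors, was at 234, 238 and 120 CPM in ETP and at 13, 23.7 and 25.2 CPM in DN3 (edgeR adjusted p = 8.39e-05). Cpa3 was the 1 tested gene of 9 mast-cell and basophil markers, and Mcpt8 of basophils had no count. The part of contaminating cells in these falls was not tested.

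Others of the largest falls were not progenitor factors. Igfbp4, which binds insulin-like growth factors, was at 143, 159 and 99.6 CPM in ETP and at 1.72, 1.21 and 4.94 CPM in DN3, a 51-fold fall (edgeR adjusted p = 2.89e-05). Emilin2, an extracellular matrix glycoprotein, was at 70, 69.5 and 54.9 CPM in ETP and at 2.23, 1.71 and 3.81 CPM in DN3 (edgeR adjusted p = 1.71e-05). Samhd1, which degrades deoxynucleoside triphosphates, was at 47.9, 47.8 and 30.2 CPM in ETP and at 0.0718, 2.16 and 2.06 CPM in DN3 (edgeR adjusted p = 0.00109). In all of these the lowest ETP library stood far above the highest DN3 library. Ahnak and Ccdc135 completed the rule for the largest falls, with log2 fold changes of -4.71 and -4.83, and each lost its call when the replicate number was a block (edgeR adjusted p = 0.134 and 0.0598).

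Some genes of the pre-T-cell receptor and its signalling rose towards DN3. Of 20 on the list, all were tested, 7 rose, none fell, 13 did not pass the test and the median log2 fold change was 0.26. Ptcra (chromosome 17, 46755663 to 46763712, minus strand) was at 31.1, 62.7 and 42.7 CPM in ETP and at 174, 187 and 152 CPM in DN3. It rose 3.76-fold (log2 fold change 1.91, SE 0.23, edgeR adjusted p = 0.000417), and no ETP library reached a DN3 library. Cd3d (chromosome 9, 44981786 to 44987339, plus strand), a signalling chain of the receptor, was at 29, 33.3 and 50.4 CPM in ETP and at 167, 169 and 182 CPM in DN3. It rose 4.6-fold (edgeR adjusted p = 7.75e-05), while Cd3e, another chain of the same complex, rose 1.44-fold from 592, 487 and 686 CPM to 837, 827 and 875 CPM (edgeR adjusted p = 0.0214).

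Cd28, the co-stimulatory receptor, rose 4.06-fold, from 23.4, 35.8 and 25.9 CPM to 110, 120 and 116 CPM (edgeR adjusted p = 9.2e-05). Themis, a signalling protein of thymocyte selection, rose 2.09-fold, from 254, 280 and 315 CPM to 536, 616 and 622 CPM (edgeR adjusted p = 0.000288). Zap70, a kinase of the receptor pathway, was also called. The list held 4 calls without DN3 replicate 2 and 4 with a spread shared by all 8 groups of the table. The call of Cd3e ended without DN3 replicate 2 or 3 or ETP replicate 1 and with that shared spread (edgeR adjusted p = 0.0748, 0.0892, 0.0613 and 0.12), and the call of Ptcra ended with the shared spread (edgeR adjusted p = 0.0527).

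The recombination machinery moved in part. Rag1 (chromosome 2, 101638282 to 101649501, minus strand), which cuts the receptor genes together with Rag2, was at 664, 557 and 744 CPM in ETP and at 1721, 1875 and 2105 CPM in DN3. It rose 2.9-fold (log2 fold change 1.54, SE 0.13, edgeR adjusted p = 4.61e-05). Rag2 was at 52, 53.5 and 50 CPM in ETP and at 84, 96.6 and 93.2 CPM in DN3, a 1.76-fold rise (edgeR adjusted p = 0.00656). Both genes were transcribed in every ETP library. Dntt, the terminal transferase that adds bases at the joints, was at 3349, 3029 and 3114 CPM in ETP and at 2712, 2663 and 3083 CPM in DN3, and its stages overlapped (edgeR adjusted p = 0.335). Of the 12 recombination genes, all tested, 3 rose and none fell. The third was Polm, at 0.119 to 0.272 CPM in ETP and 3.73 to 4.33 CPM in DN3, whose call ended without any single DN3 library (edgeR adjusted p = 0.147 to 0.205), with the block (0.109), with the shared spread (0.069) and without a filter on low counts (0.0537). Without DN3 replicate 2 the Rag2 call also ended (edgeR adjusted p = 0.0534), as with the shared spread (0.0517), and Rag1 was then the 1 call of the list in each case.

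Notch target genes and the Notch receptors were set side by side. Of 13 target genes, 12 were tested, 4 rose (Ptcra, Dtx1, Notch1 and Notch3) and none fell, with a median log2 fold change of 0.54. Dtx1 (chromosome 5, 120680202 to 120711927, minus strand), the ubiquitin ligase Deltex1, was at 212, 164 and 142 CPM in ETP and at 357, 332 and 358 CPM in DN3, a 2.02-fold rise (edgeR adjusted p = 0.00145). Notch3 (chromosome 17, 32120820 to 32166852, minus strand), a receptor that is itself a target, was at 325, 342 and 348 CPM in ETP and at 622, 661 and 668 CPM in DN3, a 1.92-fold rise (edgeR adjusted p = 0.000202). Replicates were close together for Notch3, while the ETP libraries were more spread for Dtx1. The stages did not overlap for either gene.

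Notch1 (chromosome 2, 26457903 to 26516663, minus strand) rose 1.36-fold, from 2031, 1961 and 2016 CPM to 2630, 2842 and 2677 CPM (edgeR adjusted p = 0.0105). Notch2, the receptor used by other blood lineages, moved the opposite way, from 226, 274 and 212 CPM to 153, 147 and 158 CPM (edgeR adjusted p = 0.00886). Lfng, which glycosylates Notch receptors, also fell, from 72.5, 67.2 and 106 CPM to 45.5, 47.7 and 39.9 CPM (edgeR adjusted p = 0.0162). These were the only other calls among 31 genes of the Notch receptors, their processing and their transcription complex, where 2 rose and 2 fell. Over all genes tested, 5.14% were called higher in DN3 and 6.21% higher in ETP. Without DN3 replicate 2 the calls of Notch1 (edgeR adjusted p = 0.0603) and Notch2 (0.0589) ended. The call of Lfng ended without DN3 replicate 1, 2 or 3 or ETP replicate 3 (edgeR adjusted p = 0.0531, 0.066, 0.0925 and 0.054). With the shared spread Notch3 was the 1 target gene called, and the calls of Dtx1 and Notch1 ended (edgeR adjusted p = 0.373 and 0.0669), as did that of Ptcra.

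Other Notch targets did not pass the test. Hes1, a repressor and direct target, was at 61.9, 71.8 and 67.1 CPM in ETP and at 75.6, 74.2 and 78.4 CPM in DN3, without overlap but within a log2 fold change of 0.18 (edgeR adjusted p = 0.526). Myc, a transcription factor of cell growth, was at 109, 72.6 and 85 CPM in ETP and at 99.7, 71.5 and 74 CPM in DN3 (edgeR adjusted p = 0.764). Nrarp, a feedback inhibitor of Notch, was at 39.3, 13.8 and 13.6 CPM in ETP and at 15.1, 4.98 and 9.73 CPM in DN3 (edgeR adjusted p = 0.171). The stages overlapped for Myc and Nrarp.

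The promoters of Ptcra and Dtx1, which rose, and of Cd44, which fell, are shown because they belong to the Notch target and progenitor groups above. They are the 250 bases upstream of the RefSeq gene start on GRCm38.p6, 5′ to 3′ on the gene's strand. Capitals mark TGGGAA, the core of the motif bound by Rbpj, the DNA-binding partner of Notch1, or its reverse complement TTCCCA, and no other motif was searched.
Ptcra, chr17:46763713-46763962, minus strand: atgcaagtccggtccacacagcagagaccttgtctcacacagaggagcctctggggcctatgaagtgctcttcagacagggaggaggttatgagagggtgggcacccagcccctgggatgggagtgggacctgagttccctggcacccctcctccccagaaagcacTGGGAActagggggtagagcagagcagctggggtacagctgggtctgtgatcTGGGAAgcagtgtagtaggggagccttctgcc
Dtx1, chr5:120711670-120711919, minus strand: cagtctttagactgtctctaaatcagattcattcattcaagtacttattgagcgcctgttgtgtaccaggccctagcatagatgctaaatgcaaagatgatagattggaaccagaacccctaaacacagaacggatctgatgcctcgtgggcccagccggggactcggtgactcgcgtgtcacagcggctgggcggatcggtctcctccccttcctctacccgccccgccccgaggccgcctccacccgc
Cd44, chr2:102901666-102901915, minus strand: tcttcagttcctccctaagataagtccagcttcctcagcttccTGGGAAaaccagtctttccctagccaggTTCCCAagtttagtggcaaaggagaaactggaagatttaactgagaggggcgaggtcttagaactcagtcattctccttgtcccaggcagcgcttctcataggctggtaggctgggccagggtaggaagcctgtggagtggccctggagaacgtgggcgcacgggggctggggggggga
Ptcra held 2 matches, 84 and 32 bases before the start, Cd44 held 2, 207 and 179 bases before it, and Dtx1 held 0 in this window. The letters occurred on either strand in 21.1% of 15707 promoters of table genes that could be matched by symbol. They occurred in 16.9% of 455 promoters of genes called higher in DN3, in 18.6% of 566 of genes called higher in ETP and in 20.4% of 8860 of all genes tested. A match describes the letters in this window and says nothing of binding.

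Factors of T-lineage commitment rose unevenly. All 20 listed transcription factors were tested, 6 were higher in DN3, 1 was higher in ETP and the median log2 fold change was 0.24. Lef1 (chromosome 3, 131110471 to 131224356, plus strand), a partner of beta-catenin, rose 10.4-fold, from 14.3, 16.1 and 15.4 CPM to 168, 164 and 146 CPM (log2 fold change 3.38, SE 0.16, edgeR adjusted p = 7.19e-07). Ets1, a factor of lymphoid development, rose 1.54-fold, from 602, 540 and 588 CPM to 890, 878 and 902 CPM (edgeR adjusted p = 0.00232). Bcl11b, which seals commitment to the T lineage, was at 970, 1010 and 968 CPM in the ETP libraries and at 1197, 1252 and 1382 CPM in DN3 (1.3-fold, edgeR adjusted p = 0.031).

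Tcf7 and Gata3, which act upstream of Bcl11b, did not pass the test (edgeR adjusted p = 0.208 and 0.861). Tcf7 was at 782, 760 and 806 CPM in ETP and at 950, 885 and 876 CPM in DN3. Gata3 was at 174, 157 and 110 CPM in ETP and at 132, 138 and 151 CPM in DN3. Runx3, a Runt factor of innate and cytotoxic cells, was the factor that fell, 2.18-fold from 128, 137 and 112 CPM to 61.7, 50 and 61.7 CPM (edgeR adjusted p = 0.00126). The list held 2 calls higher in DN3 without DN3 replicate 2, 3 without DN3 replicate 3 and 3 with the shared spread. The call of Bcl11b ended without DN3 replicate 2 or 3 or ETP replicate 1 or 3 (edgeR adjusted p = 0.0952, 0.148, 0.0823 and 0.0808) and with the shared spread (0.396).

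E proteins, which switch on Rag and Ptcra, are held back by Id proteins. Of 7 such genes 5 were tested, 2 were higher in DN3 (Tcf12 and Tcf4), 1 was higher in ETP (Id2) and 2 did not pass the test. Tcf12, which encodes the E protein HEB, rose 1.38-fold, from 445, 422 and 378 CPM to 552, 592 and 577 CPM (edgeR adjusted p = 0.0158). Id2, an inhibitor of E proteins that is high in innate lymphoid cells, fell 3.2-fold, from 15.8, 22.8 and 42.4 CPM to 8.47, 9.16 and 7.67 CPM (edgeR adjusted p = 0.0162). The ETP libraries were spread for Id2 and the DN3 libraries were not. Both calls ended without DN3 replicate 2 (edgeR adjusted p = 0.0813 for Tcf12 and 0.0708 for Id2), without DN3 replicate 3 (0.0687 and 0.0838) and without ETP replicate 3 (0.0536 and 0.067). For Id2 the same held without DN3 replicate 1 (edgeR adjusted p = 0.0591) and with the shared spread (0.168). The Tcf4 call ended without DN3 replicate 1, 2 or 3 or ETP replicate 2 or 3 and with the shared spread. Id3, another inhibitor, did not move with Id2. It was at 2.4, 7.17 and 10.9 CPM in ETP and at 13.3, 9.26 and 9.99 CPM in DN3, with overlap (log2 fold change 0.66, edgeR adjusted p = 0.518).

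The largest rises outside these groups included Scn4b (chromosome 9, 45138395 to 45154152, plus strand), a beta subunit of voltage-gated sodium channels. It was at 11.3, 16.1 and 14.6 CPM in ETP and at 177, 218 and 217 CPM in DN3, a 14.6-fold rise (log2 fold change 3.86, SE 0.18, edgeR adjusted p = 7.19e-07). Slc5a9, a sodium-dependent sugar transporter, was at 3.33, 0 and 0.312 CPM in ETP and at 51.7, 37 and 43.1 CPM in DN3, a 36.2-fold rise on the means (log2 fold change 5.20, SE 0.97, edgeR adjusted p = 0.00871). The Slc5a9 call ended without a filter on low counts (edgeR adjusted p = 0.0792).

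Bmf, a pro-apoptotic member of the Bcl2 family, rose 9.53-fold, from 22.1, 15.7 and 5.18 CPM to 141, 144 and 126 CPM (edgeR adjusted p = 0.000427), and was the only called gene among 12 tested of that family. H19, an imprinted non-coding RNA, rose 7.81-fold, from 16, 19.2 and 19.9 CPM to 122, 109 and 199 CPM (edgeR adjusted p = 3.98e-05). Ccr9, the chemokine receptor that guides cells to and within the thymus, rose 6.5-fold, from 13.8, 18.4 and 29.2 CPM to 112, 153 and 134 CPM (edgeR adjusted p = 0.0001). In these 3 genes the stages lay far apart. Plxdc1 and Arhgef10l also met the rule for the largest rises, with log2 fold changes of 2.92 and 2.87.

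Homing and cytokine receptor genes followed. Of 16 tested homing and adhesion receptors 2 were higher in DN3, Ccr9 and Plxnd1, and 2 were higher in ETP, Cd44 and Itgb7. Itgb7, an integrin of gut-homing cells, fell 9.37-fold, from 58, 46.3 and 56.7 CPM to 5.38, 1.96 and 9.84 CPM (edgeR adjusted p = 0.00137). Of 28 tested cytokine receptor and Jak-Stat genes, 6 were higher in ETP and none in DN3. Il4ra, a chain of the interleukin-4 receptor, fell 6.67-fold, from 49.9, 39.7 and 48.2 CPM to 7.46, 6.59 and 6.59 CPM (edgeR adjusted p = 8.46e-05). Il7r, the receptor chain for interleukin-7, was at 126, 149 and 182 CPM in ETP and at 115, 131 and 193 CPM in DN3, with overlap (edgeR adjusted p = 0.902). The Plxnd1 call ended without DN3 replicate 1, 2 or 3 (edgeR adjusted p = 0.0776, 0.0543 and 0.14) and with the shared spread (0.0577). The cytokine list held 2 calls without DN3 replicate 1 and 3 without DN3 replicate 2.

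Markers of natural killer and innate lymphoid cells were low in number of counts, and those tested were mostly higher in ETP. Of 18 markers, 9 were tested, 6 were higher in ETP and 1 was higher in DN3, against 6.21% and 5.14% of all genes tested. The summed level of the 18 was 140 to 174 CPM in ETP and 98.5 to 125 CPM in DN3. A low gene could enter the test only through the stage where it was higher, so the calls describe the list only. Zbtb16, the factor of innate-like lymphocytes, was at 9.98, 5.85 and 13.1 CPM in ETP and at 0.215, 0.0503 and 0.0515 CPM in DN3 (edgeR adjusted p = 0.00166). Gzmb, a granzyme of killer cells, was at 15.3, 3.76 and 4.81 CPM in ETP and had no count in DN3, so it was at least 141-fold lower by the floor of 3 counts over the group. Gzma, another granzyme, went the opposite way, from 30.1, 10.8 and 21.9 CPM to 92.6, 87.8 and 66.6 CPM (edgeR adjusted p = 0.00252). Tbx21, a defining factor, had 61 counts in ETP and 14 in DN3. Of the same markers, Eomes had 2 and 33 counts and Klrb1c had 0 and 9. The part of such cells in either sort was not tested. Without DN3 replicate 1 the list held 3 calls higher in ETP.

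Markers of later thymocytes were checked for the DN3 sort. Of 10 tested markers of double-positive cells, 5 were higher in DN3, and Arpp21, an RNA-binding protein of immature thymocytes, rose 1.99-fold, from 575, 798 and 610 CPM to 1025, 1479 and 1436 CPM (edgeR adjusted p = 0.00281). Cd4 instead fell, from 12.2, 16.7 and 32.4 CPM to 4.67, 2.42 and 3.19 CPM (edgeR adjusted p = 0.00602). Cd8a had 133 counts in ETP and 352 in DN3 over 3 libraries. The defining receptors of double-positive cells were thus low in both stages, and the list held 3 calls higher in DN3 without DN3 replicate 2 or 3 and with the shared spread.

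Klf2, of migrating mature T cells, was higher in ETP (12.7-fold, edgeR adjusted p = 0.00549), and Ctla4, an inhibitory receptor, was higher in DN3 (2.57-fold, edgeR adjusted p = 0.00219). These were among 9 tested mature T-cell markers, where 1 was higher in DN3 and 2 were higher in ETP. Of the gamma-delta markers 2 of 7 tested were higher in ETP. Among the stromal markers 1 of 7 was higher in each stage, Epcam in DN3 and Pdgfrb in ETP, and of the dendritic-cell markers 3 of 9 were higher in ETP and 1 in DN3. The 3 dendritic-cell calls were 0 without ETP replicate 3 and 1 without DN3 replicate 2, DN3 replicate 3 or ETP replicate 1. The Epcam call ended without DN3 replicate 1, 2 or 3 or ETP replicate 1 (edgeR adjusted p = 0.111, 0.105, 0.142 and 0.0566). None of the 4 tested B-cell and 2 tested erythroid markers was called by edgeR or DESeq2, and 0 had an unadjusted p under 0.05.

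**Figure D3:**
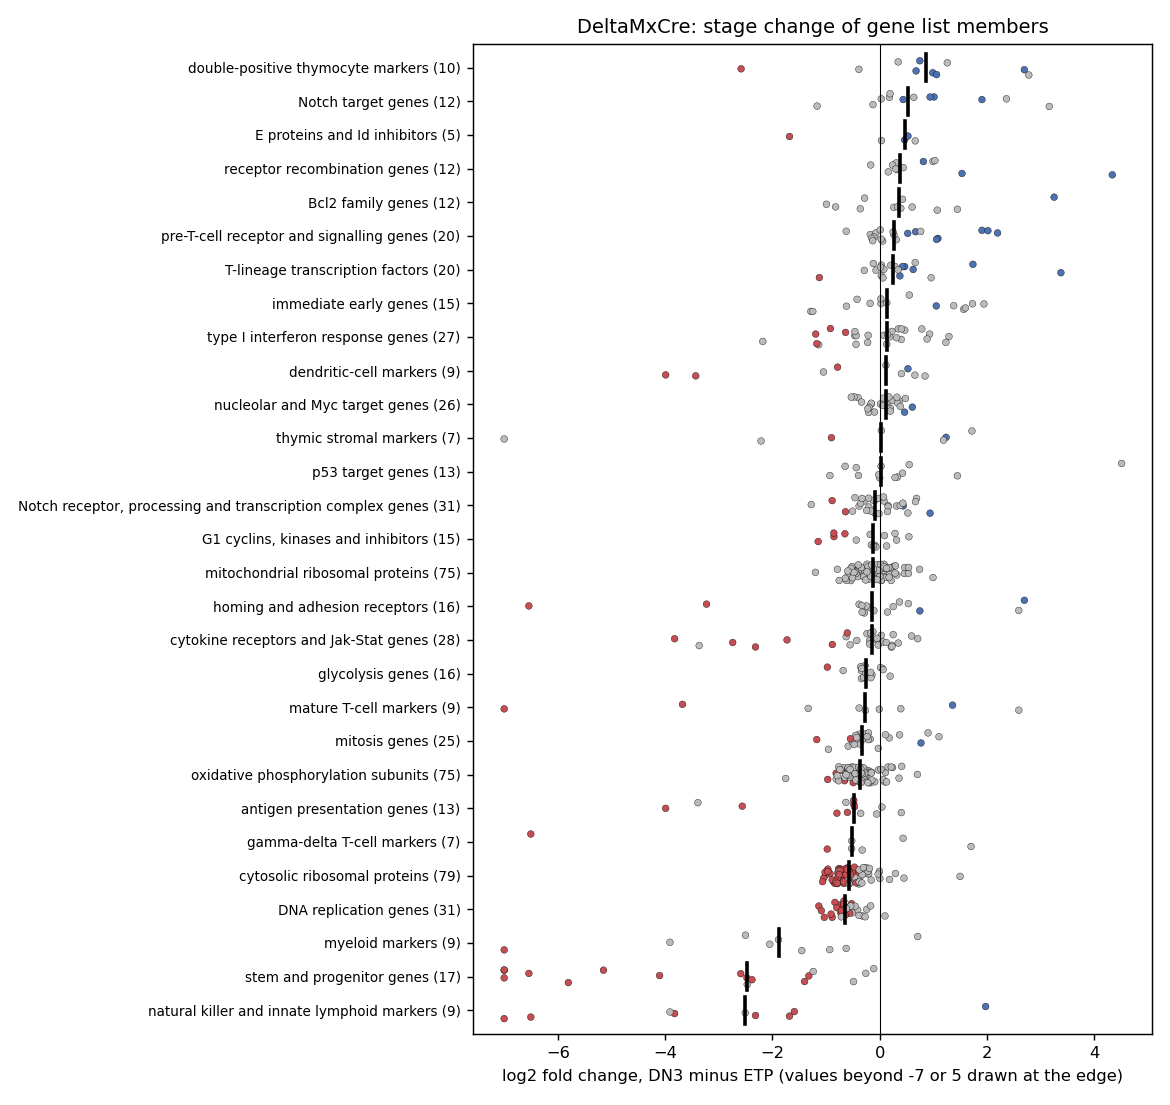
Log2 fold change (DN3 minus ETP, horizontal axis) of each tested member of the gene lists with at least 5 tested members in DeltaMxCre, with the number tested in brackets, far values drawn at the edge and a bar at the median. Blue points were called higher in DN3, red points higher in ETP and grey points were not called. The medians run from -2.51 for natural killer and innate lymphoid markers to 0.87 for double-positive thymocyte markers. A low gene could enter the test only through the stage where it was higher, which affects lists with many low members.

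Genes of DNA replication were higher in ETP. Of 31 on the list, all tested, 17 were higher in ETP and none in DN3, and 30 had a log2 fold change below 0, with a median of -0.64. Mcm3, a subunit of the replicative helicase, was at 610, 598 and 732 CPM in ETP and at 358, 260 and 267 CPM in DN3, a 2.19-fold fall (edgeR adjusted p = 0.000694). Mcm5, of the same helicase, fell 2.04-fold, from 507, 446 and 552 CPM to 299, 220 and 217 CPM (edgeR adjusted p = 0.0013). The count of 17 was 6 without DN3 replicate 2, 7 without DN3 replicate 3, 10 without ETP replicate 3 and 4 with the shared spread.

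Of 25 mitosis genes, all tested, 1 was higher in DN3 and 2 were higher in ETP, against 5.14% and 6.21% of all genes tested. The summed level of the list was 2737 to 2989 CPM in ETP and 2599 to 3367 CPM in DN3. Among 15 tested genes of the G1 phase 4 were higher in ETP, and Ccnd3, the cyclin D3 of immature thymocytes, fell 1.8-fold, from 179, 153 and 183 CPM to 100, 95.5 and 90.1 CPM (edgeR adjusted p = 0.00206). That list held 2 calls without DN3 replicate 2 and 1 without DN3 replicate 3.

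Of 82 cytosolic ribosomal protein genes, 79 were tested, 50 were higher in ETP and none was higher in DN3. Their summed level was 52240 to 60700 CPM in ETP and 34560 to 41690 CPM in DN3, with a median log2 fold change of -0.58. Rpl10 was at 1008, 1114 and 1051 CPM in ETP and at 654, 546 and 649 CPM in DN3 (1.72-fold, edgeR adjusted p = 0.00126). Rplp1 was at 1324, 1166 and 1073 CPM in ETP and at 699, 558 and 450 CPM in DN3 (2.09-fold, edgeR adjusted p = 0.0014). These genes have processed pseudogenes, and the treatment of reads matching several genes is not given in the sources used here, so their levels are uncertain. The share of counts on Rn45s was also higher in ETP, as given above, and with Rn45s and Malat1 left out 50 members were called. The count was 21 without DN3 replicate 2, 26 without DN3 replicate 3 and 30 without ETP replicate 1.

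Fewer members were called in other growth and metabolic lists. Over all genes tested, edgeR called 5.14% higher in DN3 and 6.21% higher in ETP. At an unadjusted p under 0.05, 1481 of all 12494 genes were higher in DN3 and 1713 were higher in ETP. None of 75 mitochondrial ribosomal protein genes was called by edgeR, 5 had an unadjusted p under 0.05, all higher in ETP, and DESeq2 called 1. Of 75 oxidative phosphorylation subunits 64 had a log2 fold change below 0, with a median of -0.37, and 25 were higher in ETP and 0 in DN3 at an unadjusted p under 0.05. The number called higher in ETP was 8. It was 0 without DN3 replicate 2 or 3, 1 without ETP replicate 1, 4 without ETP replicate 3, 5 without DN3 replicate 1, 14 without ETP replicate 2, 2 with the shared spread and 5 with upper-quartile scaling. Among 16 glycolysis genes Aldoa, the aldolase, was the 1 call, higher in ETP (1.96-fold, edgeR adjusted p = 0.00203). Of 26 nucleolar and Myc target genes 2 were higher in DN3 and the median log2 fold change was 0.11. Of 13 tested p53 target genes none was called by edgeR, 3 were higher in DN3 and 1 in ETP at an unadjusted p under 0.05, and DESeq2 called 2, higher in DN3.

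Genes of immune sensing were compared because pI-pC induces interferon. Of 27 type I interferon response genes, all tested in these cells sorted 8 weeks after injection, 4 were higher in ETP and none in DN3 by edgeR, where DESeq2 called 1, with a median log2 fold change of 0.13. That count was 2 without DN3 replicate 1, 0 without DN3 replicate 2 or 3, 1 without ETP replicate 1, 2 without ETP replicate 3 and 2 with the shared spread. Of 13 tested antigen presentation genes 7 were higher in ETP. H2-K1, a class I heavy chain with close copies that may share its reads, was at 496, 389 and 377 CPM in ETP and at 244, 208 and 276 CPM in DN3 (edgeR adjusted p = 0.00495). That list held 4 calls without DN3 replicate 1 or 3 or ETP replicate 1, and 3 without DN3 replicate 2. Among 15 tested immediate early genes, which rise with handling of cells, Btg2 was the 1 call, at 97.9, 110 and 96.1 CPM in ETP and at 208, 244 and 180 CPM in DN3 (edgeR adjusted p = 0.000975). Of all genes tested, 5.14% were called higher in DN3 and 6.21% higher in ETP.

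The same comparison was made in MxCre, which shares no library with DeltaMxCre. There edgeR called 111 of 12399 genes higher in DN3 (0.895%) and 260 higher in ETP (2.1%), against 642 and 776 in DeltaMxCre, and DESeq2 called 414 (3.34%) and 602 (4.86%). The MxCre ETP libraries correlated with each other at 0.908 to 0.917 and the DeltaMxCre ETP libraries at 0.925 to 0.947 (Pearson's r over genes, log2(CPM + 1)), so the numbers of calls are not a measure of the size of the stage change. Without MxCre DN3 replicate 1, 2 or 3 the MxCre counts were 41, 40 or 56 higher in DN3 and 105, 109 or 138 higher in ETP, without ETP replicate 2 they were 50 and 85, and without ETP replicate 1 they were 369 and 366. With a spread shared by all 8 groups of the table, edgeR called 749 and 755 genes in MxCre and 549 and 537 in DeltaMxCre.

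Of 11989 genes tested in both genotypes, 262 were called in both, which is 18.7% of the 1403 called in DeltaMxCre and 74% of the 354 called in MxCre. All 262 had the same direction in both. Of the 1403 genes called in DeltaMxCre, 1358 (96.8%) had the same sign in MxCre, against 70.7% of all genes tested in both. All 12 progenitor genes called in DeltaMxCre had the same sign in MxCre, as did all 17 DNA replication and all 50 ribosomal protein genes. In MxCre edgeR called no DNA replication or cytosolic ribosomal protein gene, with medians of -0.38 and -0.45. At an unadjusted p under 0.05, 6 of 31 and 27 of 79 were higher in MxCre ETP, against 1135 of all 12399 genes, and DESeq2 called 2 and 9. Whether these lists differed between genotypes was tested gene by gene only, and no member of any list passed edgeR's interaction test, described next. Of the 12 Notch target genes 1 was above 0 and 5 were below 0 in that test at an unadjusted p under 0.05, and DESeq2 called 3. Over all genes these numbers were 388 and 352 of 13406.

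**Figure D4:**
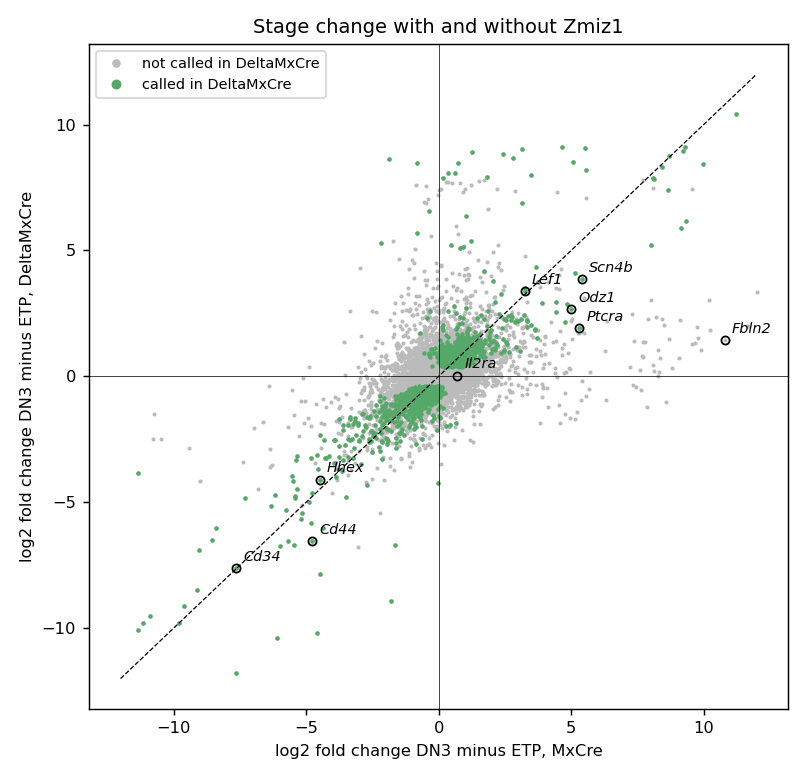
Log2 fold change (DN3 minus ETP) of each gene tested in both genotypes, with MxCre on the horizontal and DeltaMxCre on the vertical axis, green points called in DeltaMxCre and the dashed line marking equal change. Cd34, Hhex and Lef1 lie by the line, while Ptcra, Odz1, Scn4b and Fbln2 lie below it at a smaller change in DeltaMxCre.

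Whether a stage change differed between genotypes was tested as an interaction over the 12 libraries. Of 13406 genes, 1 passed (0.00746%), and 740 had an unadjusted p under 0.05, 388 above 0 and 352 below 0. DESeq2 called 25 above 0 and 25 below 0 (0.186% each). The gene was Fbln2 (chromosome 6, 91212455 to 91272540, plus strand), which encodes fibulin-2 of the extracellular matrix. It had 3.19, 7.94 and 3.44 CPM in DeltaMxCre ETP and 12.2, 14.4 and 12.9 CPM in DeltaMxCre DN3. In MxCre it had no count in ETP and 8.79, 10.5 and 16.9 CPM in DN3, at least 222-fold higher by the floor of 3 counts over the group. The DN3 levels of the genotypes overlapped, and the ETP levels did not (edgeR adjusted p of the interaction = 0.0271). The edgeR call was lost without any single DeltaMxCre DN3 library, without MxCre DN3 replicate 2 or 3 and with the replicate block. The number of genes below 0 was 3 without DeltaMxCre ETP replicate 1, 12, 3 and 6 without MxCre ETP replicate 1, 2 and 3, and 5 with the shared spread.

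The next genes by p did not pass edgeR. Ptcra was at 6.76, 1.44 and 3.3 CPM in MxCre ETP and at 148, 186 and 122 CPM in MxCre DN3, beside the DeltaMxCre levels above (interaction -3.39, SE 0.53, edgeR adjusted p = 0.0652, DESeq2 adjusted p = 3.39e-07). Odz1, a teneurin of the cell surface, was at 14.1, 13.9 and 14.2 CPM in DeltaMxCre ETP, 93.4, 84.5 and 89.2 CPM in DeltaMxCre DN3, 4.32, 2.19 and 1.9 CPM in MxCre ETP and 57, 84.8 and 125 CPM in MxCre DN3 (edgeR adjusted p = 0.163, DESeq2 adjusted p = 0.000735). For Ptcra and Odz1 the ETP libraries of the genotypes did not overlap and the DN3 libraries did. Scn4b was at 3.92, 4.44 and 3.9 CPM in MxCre ETP, below each DeltaMxCre ETP library, and at 148, 240 and 134 CPM in MxCre DN3 (edgeR adjusted p = 0.218, DESeq2 adjusted p = 0.00889).

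All 8 genes with the lowest interaction p had the smaller stage change in DeltaMxCre, a description of genes picked by that p. In 7 of these, all but Lat2, every DeltaMxCre ETP library was above every MxCre ETP library. The other genes of the 8 were Ttc12, Ldhal6b and Rad9b, which had 0, 0 and 1 counts in MxCre ETP. Rag1 and Dtx1 did not pass edgeR's interaction test (edgeR adjusted p = 0.218 and 0.253), but DESeq2 called both (DESeq2 adjusted p = 7.53e-05 and 0.00264). In MxCre ETP Rag1 was at 253, 107 and 383 CPM and Dtx1 at 20.9, 28 and 7.99 CPM. In MxCre DN3 Rag1 was at 2924, 3739 and 2995 CPM and Dtx1 at 127, 174 and 174 CPM. A simulation used these library sizes and each gene's mean over all libraries of the comparison, with the change placed in DeltaMxCre DN3 alone. In it, 47 of 100 genes made to differ by 2 on the log2 scale and 4 of 100 made to differ by 1 passed the interaction test. For the stage comparison in DeltaMxCre these numbers were 67 and 47. Genes absent from a single group, such as Fbln2, were not modelled.

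A list of stage genes from the IgG libraries, which enter neither comparison above, was then followed in both genotypes. In IgG edgeR called 906 of 12720 genes higher in DN3 (7.12%) and 967 higher in ETP (7.6%). Of the 889 higher in DN3 that could be tested in both genotypes, 860 had the same sign in DeltaMxCre and 865 in MxCre, and their median log2 fold changes were 0.81 in IgG, 0.65 in DeltaMxCre and 0.70 in MxCre. Of the 930 higher in ETP, 901 had the same sign in DeltaMxCre and 893 in MxCre, with medians of -0.93, -0.72 and -0.75. Of these genes edgeR called 411 and 478 in DeltaMxCre, and 91 and 199 in MxCre.

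Averaged over the genes higher in DN3, the level as log2(CPM + 1) was 5.69, 5.85 and 5.74 in DeltaMxCre ETP and 6.45, 6.59 and 6.56 in DeltaMxCre DN3. In MxCre it was 5.78, 5.42 and 5.15 in ETP and 6.44, 6.54 and 6.29 in DN3. The stages were thus apart in both genotypes on a list chosen in the IgG libraries, and the genotypes overlapped at each stage. For the genes higher in ETP, it was 6.22, 6.09 and 6.11 in DeltaMxCre ETP and 5.34, 5.19 and 5.26 in DeltaMxCre DN3, and 6.11, 6.39 and 6.43 in MxCre ETP and 5.32, 5.11 and 5.42 in MxCre DN3. Again the stages were apart and the genotypes overlapped. The IgG stages also differed in the number of cells extracted and in the share of counts on Rn45s. That share was 8.9%, 10.4% and 13.8% in IgG ETP and 3.7%, 2.7% and 2.9% in IgG DN3. The part of these differences in the list was not tested. Without IgG DN3 replicate 2 the IgG counts were 461 and 532, without replicate 3 they were 435 and 506, and with the shared spread they were 420 and 549.

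**Figure D5:**
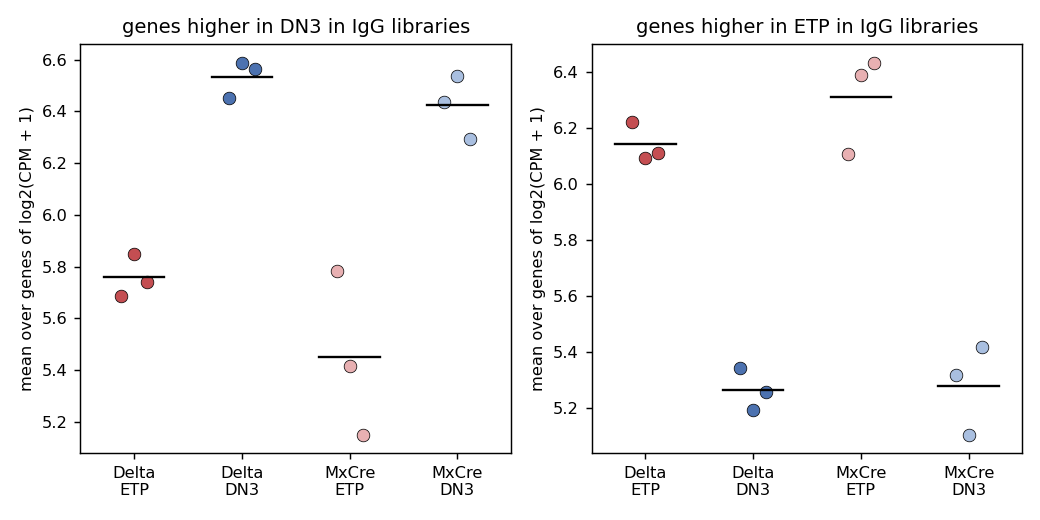
Mean of log2(CPM + 1) over the genes called higher in DN3 (left) or higher in ETP (right) in the IgG libraries, for each DeltaMxCre (Delta) and MxCre library, with lines at the mean of 3. In both panels the ETP and DN3 points of a genotype are apart, and the vertical axis does not start at 0.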

How the data were processed

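RNA sequencing libraries of sorted thymocytes were compared. The deposited table holds estimated counts per gene symbol, and between 0.938% and 1.48% of the values above 0 in a library were further than 0.01 from a whole number, so they were rounded before testing. The submitters' processing notes name the build mm10 and, without their roles, Cuffdiff 2.1.1, Cufflinks, Bowtie2 2.1.0.0 with TopHat2 2.0.9, and FastQC 0.10.0. The annotation, use of strand and counting rules are not given in the sources used here. PCR reads without molecular identifiers are not independent molecules.

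Genes were kept with filterByExpr (at least 10 counts, 15 in total). TMM factors scaled the libraries, and tests were run in R 4.3.3 with the quasi-likelihood test of edgeR 4.0.16 (robust), with stage as the only term and Benjamini-Hochberg adjustment over all genes tested at 0.05. Log2 fold changes used a prior count of 0.125. DESeq2 1.42.0 was an alternative, beside other scalings, filters, a shared spread, a replicate block, leaving out each library, and, chosen after the data were seen, leaving out Rn45s and Malat1. The procedure was tested on simulated data. P-values measure the spread between 3 libraries per group, from 3 mice per group per the labels.

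The 32 gene lists and the comparison were chosen with earlier results of these data known. Named were a fixed set of stage genes, the 8 largest called changes per direction whose stages did not overlap and whose mean reached 10 CPM, the 3 called list members with the lowest p per direction, the highest uncalled member of a list without calls, the 8 lowest interaction p, and Malat1, Neat1 and Rn45s. Genes outside this rule are given by name or counts only and were chosen after their values were seen. Positions are from GENCODE M21 on GRCm38 by symbol, and promoters from RefSeq. Spi1 and Pkm were matched by the older symbols Sfpi1 and Pkm2. Some genes that the rule or the lists hold are not reported here.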

Additional observations from a re-analysis of the deposited data

Results flagged for a closer look

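The stage difference of Fbln2 stood out because it differed between the genotypes in the interaction test (edgeR adjusted p = 0.0271, DESeq2 adjusted p = 1.8e-06). The change was smaller in DeltaMxCre, where Fbln2 did not pass the stage test (log2 fold change 1.44, edgeR adjusted p = 0.0827). The edgeR interaction call was lost without any single DeltaMxCre DN3 library, as given above. The level of Fbln2 was 4.86 ± 2.68 CPM (SD, n = 3) in DeltaMxCre ETP, with 235 counts in all, and it had no count in the 3 MxCre ETP libraries. In the IgG libraries Fbln2 was also higher in DN3 (log2 fold change 2.19, edgeR adjusted p = 0.00207). The summed level of the thymic stromal markers was 333 to 387 CPM in DeltaMxCre ETP and 334 to 514 CPM in MxCre ETP, and their part in the Fbln2 difference was not tested.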

How the results depend on the processing

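Of 90 called genes named by the rule, 52 kept their call and direction under every alternative run, 38 lost the call in at least 1 and none reversed. Sign changed in 4 uncalled genes: log2 fold changes with 1 library left out ran from -0.310 to 0.097 for Il7r (0.089, 0.015 and 0.097 without DN3 replicate 1, DN3 replicate 2 and ETP replicate 3), from -0.092 to 0.124 for Il2ra (-0.092 without DN3 replicate 3), from -0.290 to 0.062 for Myc and from -0.231 to 0.080 for Gata3 (both highest without ETP replicate 1).

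In DeltaMxCre, leaving out 1 library gave 221 to 913 genes higher in DN3 and 266 to 901 higher in ETP, and DESeq2 gave 964 higher in DN3. In MxCre the ranges were 40 to 369 and 85 to 366, with 414 and 602 by DESeq2, 749 and 755 with the shared spread and 271 and 392 with the replicate block. In IgG they were 435 to 924 and 506 to 959, with 420 and 549 with the shared spread. The interaction gave 0 to 1 genes above 0 and 0 to 12 below 0, with 25 and 25 by DESeq2, 2 and 5 with the shared spread and 0 and 0 with the replicate block. The causes of these shifts were not tested.

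Same-numbered ETP and DN3 libraries deviated together with correlations of 0.051, 0.016 and -0.017 in DeltaMxCre and 0.111, 0.025 and 0.23 in MxCre. With 3 libraries per group these values cannot decide whether same-numbered libraries came from the same mouse, which the labels do not tell. With the replicate block, edgeR called 699 and 771 genes in DeltaMxCre. With 1 library left out a stage can rest on 2 libraries. Low-count genes with no count in 1 stage have a fitted change that depends on the prior count. Flt3 had too few counts to pass the filter and was not tested.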
